A study of Rattus norvegicus with 4 samples.

Results

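The cytoplasmic ribosomal protein genes are the genes for the protein parts of the ribosome that works outside mitochondria. They were taken as every probe whose symbol in the deposited files, or current name by its Entrez identifier, begins with Rpl or Rps and a digit, or is Rpsa, leaving out the S6 kinases whose symbols begin with Rps6k. The rule found 98 of the 20174 probes, 42 by the symbol in the files and 56 by the Entrez identifier alone. These probes stand for 94 of the 20022 genes and unnamed probes on the array. Of the 94, 48 carry a standard symbol such as Rps6, 24 are named as like copies such as Rpl35l1, and 21 carry a pseudogene suffix such as Rpl23a-ps6. The last is Rps19bp1, which the letters of the rule take in although it encodes a partner of Rps19 and no part of the ribosome. By name, 36 of the genes belong to the small subunit and 57 to the large one.

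The arrays measured total RNA of rat liver, amplified and labelled with the dye Cy5, with 1 array for each of 4 groups. Every Sprague-Dawley rat, control or not, had an intraperitoneal dose of diethylnitrosamine, a liver carcinogen, at an age of 10 weeks, and then ate a diet deficient in methionine and choline for 12 weeks. The groups were connexin 32 dominant negative transgenic rats on that diet alone, the same genotype with luteolin in the diet, wild-type rats on that diet alone, and wild-type rats with luteolin. Connexin 32 is the main gap junction protein of hepatocytes, and luteolin is a plant flavonoid. The sources used here do not state the sex, the luteolin dose, the promoter of the transgene or the number of rats behind each array. Since no group had a second array, the spread within a group is unknown, and a ratio carries no p-value of its own. The small number of arrays limits its precision. Fewer cells of a type and less RNA per cell cannot be told apart in RNA from whole liver.

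A ribosome joins a small subunit, which reads the mRNA, and a large subunit, which forms the peptide bond. Cells make the protein parts in matched amounts, and protein that finds no place in a subunit is degraded. In mammals the mRNAs of these genes begin with a C followed by an unbroken run of pyrimidines, the terminal oligopyrimidine tract, through which mTOR signalling and the protein Larp1 set how much of each mRNA is translated. Much of their control therefore acts on translation, which an array of RNA levels does not measure.

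The start of the gene is where standard genes and their copies differ in sequence, so windows around the annotated start are shown for 4 standard genes and for copies of 3 of them. Each window holds 20 bases before the start and the first 15 bases of the transcript, from RefSeq's promoter table of build GRCr8. Capitals mark an unbroken run of at least 7 pyrimidines counted from a C within 10 bases of the start, and pyrimidines that lie before that C are not counted.
Rps26, chromosome 7:1643390-1643424, minus strand: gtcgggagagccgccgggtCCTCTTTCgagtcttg
Rps26l1, chromosome 7:64867111-64867145, plus strand: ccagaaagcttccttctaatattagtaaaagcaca
Rps26-ps12, chromosome 9:6256097-6256131, minus strand: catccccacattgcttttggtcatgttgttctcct
Rpl10, chromosome X:157205830-157205864, plus strand: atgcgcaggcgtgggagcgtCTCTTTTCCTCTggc
Rpl10l1, chromosome 6:90281968-90282002, minus strand: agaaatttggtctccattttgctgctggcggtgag
Rpl29, chromosome 8:115947623-115947657, plus strand: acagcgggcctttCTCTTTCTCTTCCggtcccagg
Rpl29l1, chromosome 17:35928155-35928189, plus strand: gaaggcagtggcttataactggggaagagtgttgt
Rpl35, chromosome 3:43165907-43165941, minus strand: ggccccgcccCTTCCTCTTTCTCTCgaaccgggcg
The capitals cover 8 bases in Rps26, 12 in Rpl10, 13 in Rpl29 and 15 in Rpl35, while the 4 copies shown have no such run. In Rpl29 and Rpl35 further pyrimidines precede the capitals, so that the whole stretch begins more than 10 bases before the start, as does a pyrimidine stretch in Rps26l1 that the rule leaves unmarked.

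Promoters were found in that table for 39 of the 48 standard genes and for 22 of the 45 copies. Such a run was present in 22 of the 39 standard promoters (56.4%), in 4 of the 22 copies (18.2%) and in 10.8% of all 19005 protein-coding promoters. In the whole window, from 250 bases before to 50 bases after the start, the letters CCGGAAG stood on either strand in 30.8% of the standard promoters, in 9.09% of the copies and in 11.2% of protein-coding promoters. The letters ATGGCGG stood on either strand in 25.6%, 0.0% and 6.39%. The letters TATAAA, again on either strand, stood in 7.69%, 13.6% and 13.1%. In 1 standard promoter the run and CCGGAAG shared bases. These are counts of letters and not of bound sites. A run was sought near the annotated start alone, so its absence there does not show that the mRNA lacks the tract. The annotated span had a median of 3062 bases for standard genes, 558 for like copies and 533 for pseudogenes. The ranges overlapped, at 1023 to 893235, 265 to 11548 and 321 to 1666 bases.

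Of the 94 genes, 87 had a signal above the background of the files on all 4 arrays. They were 47 of the 48 standard genes, all 24 like copies and 16 of the 21 pseudogenes. Rps19, a small-subunit protein whose loss causes a human anaemia, was above background on 1 array only, and Rps19bp1, Rpl17-ps16 and Rpl26-ps3 were above it on none. Most members were bright: the median log2 intensity of the 47 standard genes was 12.69 and 12.50 in transgenic rats without and with luteolin and 12.50 and 12.51 in wild-type rats without and with it, against 6.53 for all 14128 genes above background on every array. A probe's intensity depends on its sequence as well as on its target, so levels were not set against each other between genes. Of the 98 probes, 61 list several transcript accessions, up to 19 for 1 probe, and 8 of the 33 standard genes with an Entrez name are given as another gene by it, such as Rps27, which the Entrez identifier names Rps27l. Where a probe matches a gene and its near-identical copies, their signals cannot be told apart. Which probes do so could not be checked without probe sequences.

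The brightest members were core proteins of the ribosome. Rps6, the small-subunit protein phosphorylated by the S6 kinases, had log2 intensities of 13.56, 13.37, 13.39 and 13.49. Every set of 4 values below keeps this order: transgenic rats without luteolin, the same genotype with it, wild-type rats without luteolin and wild-type rats with it. Rpl7a, a large-subunit protein, had 13.37, 13.34, 13.32 and 13.38. Both stayed within 0.20 over all 4 arrays. Rpl4, which lines the tunnel through which the new peptide leaves, had 13.24, 13.39, 13.45 and 13.26. Rpl32 had 13.31, 13.18, 13.28 and 13.32, and Rpl41, the smallest protein of the ribosome, had 13.09, 13.22, 13.16 and 13.35. No array was the highest for all 5 of these brightest members. The dimmest members above background on every array were Rpl24l1, Rpl3l, Rpl26, Rpl13a and Rpl11, with mean log2 intensities of 5.83, 5.83, 6.14, 6.29 and 6.41. Rpl3l is the paralog of Rpl3 known from skeletal muscle. Rpl11, Rpl13a and Rpl26 are core proteins of the large subunit, and at signals this near background their ratios are shrunk towards 0.

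The first question was whether luteolin in the diet went with a different level of ribosomal protein mRNA. In transgenic rats the median log2 ratio of luteolin over no luteolin was -0.01 over the 87 members, with the middle 50% from -0.15 to 0.07, and 0.01 over all 14128 genes. Of the members, 39 were higher and 48 lower, where 54.3% of all genes were higher and 45.7% lower, and none reached 1.5-fold in either direction, where 0.495% of all genes were at least that much higher and 1.04% lower. The highest ratio was 0.48, for Rpl23a-ps6. In wild-type rats the median was -0.03, with the middle 50% from -0.15 to 0.07, and 40 members were higher and 47 lower, where 50.2% of all genes were higher and 49.6% lower. No member was 1.5-fold higher, where 0.311% of all genes were, and 1 member, Rps26, was 1.5-fold lower, where 0.396% of all genes were. These medians were obtained with quantile normalization. In transgenic rats the median became -0.27 with each array centred on its median and -0.25 on the authors' values, with 3 and 2 members 1.5-fold lower, where 3.21% and 18.5% of all genes were. In wild-type rats the sign turned to 0.22 with each array centred on its median and to 0.17 on the authors' normalized values. On these scalings non-member genes at or above the members' lower quartile of brightness had medians of 0.31 and 0.23.

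**Figure D1:**
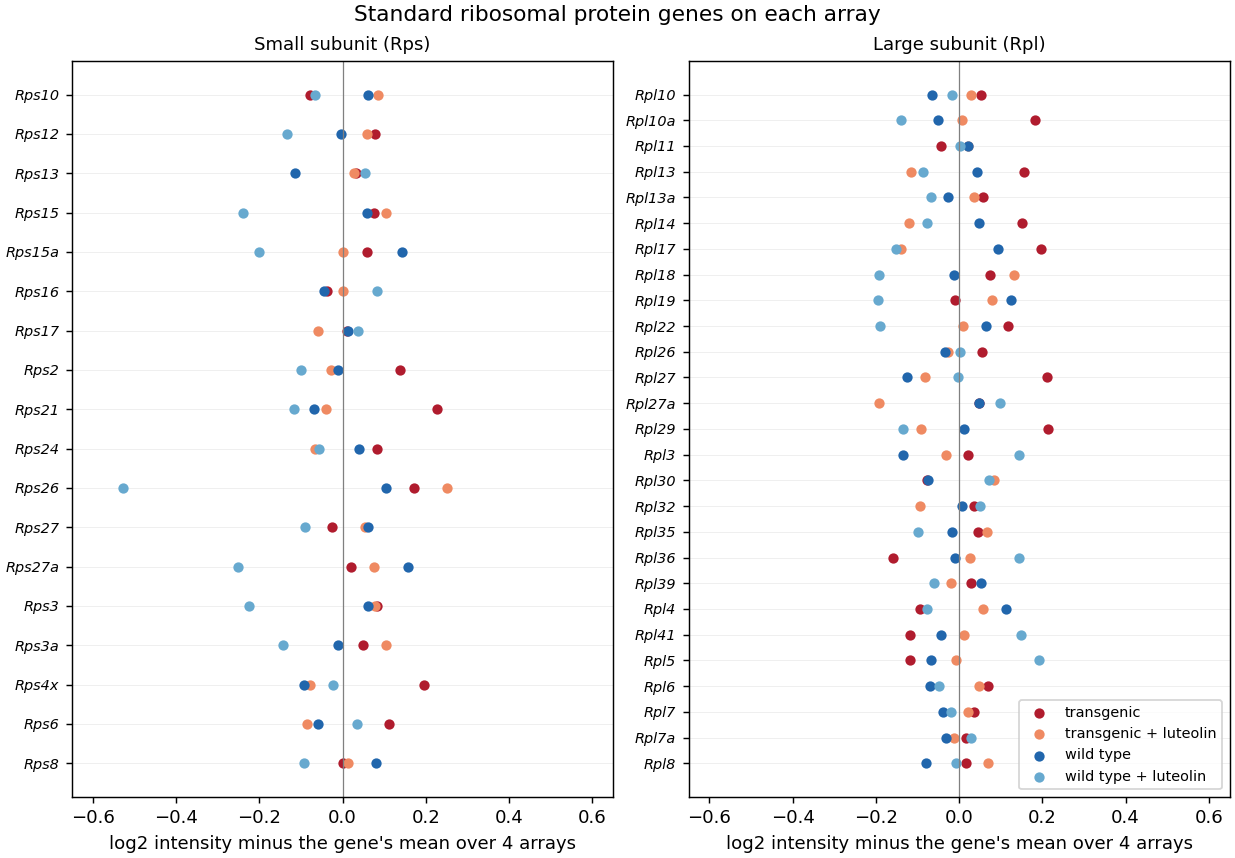
Log2 intensity of 45 of the 47 standard ribosomal protein genes above background on all 4 arrays, each minus the gene's own mean over the arrays; 1 point is 1 array, and there are no error bars because each group has 1 array. Rps26 on the wild-type luteolin array is the one point far from the rest, and most genes spread over less than 0.32.

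Low ratios with luteolin in transgenic rats came from both subunits. Rps4x, encoded on the X chromosome, had log2 intensities of 12.76, 12.49, 12.47 and 12.54, and Rps21 had 10.99, 10.73, 10.70 and 10.65. In both the transgenic array was highest. Among large-subunit genes Rpl17 had 12.19, 11.85, 12.08 and 11.84, lower on both luteolin arrays. Rpl29 had 13.29, 12.98, 13.09 and 12.94, again lower on both luteolin arrays and highest on the transgenic one. Rpl27 had 12.73, 12.44, 12.39 and 12.51, and was highest on the transgenic array. The bright pseudogene probe Rpl21-ps17 had 12.83, 12.51, 12.58 and 12.74, lowest in transgenic rats with luteolin. At the other end were mostly copies. Rpl23a-ps6 had a ratio of 0.48, Rps18l4 of 0.27, Rpl14l1 of 0.24, Rps9-ps4 of 0.22 and Rpl35l1 of 0.19.

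With luteolin in wild-type rats, the 3 lowest ratios after Rps26 and Rpl23a-ps6 belonged to genes and copies of the small subunit, followed by the large-subunit gene Rpl19 at -0.32. Rps27a, made as a fusion with ubiquitin, had log2 intensities of 12.08, 12.14, 12.22 and 11.81. Rps15a had 13.12, 13.06, 13.20 and 12.86, and the copy Rps12l6 had 10.99, 11.15, 10.95 and 10.62. All 3 were lowest on the wild-type luteolin array. Rps3, which lies at the mRNA entry of the small subunit, had 12.51, 12.50, 12.49 and 12.20, and Rps15 had 12.07, 12.10, 12.05 and 11.76. They too were level on 3 arrays and low on that one. The highest ratios belonged to the large subunit. Rpl3, a core protein near the catalytic centre, had 12.69, 12.64, 12.54 and 12.82. Rpl5, which carries the 5S RNA into the large subunit and binds Mdm2, had 12.58, 12.69, 12.63 and 12.89. Both were highest on the wild-type luteolin array. The copies Rpl35l2, Rpl29l1 and Rpl37al3 had ratios of 0.23, 0.21 and 0.21. The partner of Rpl5 in that complex, Rpl11, had a ratio of -0.02 on its dim probe.

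Over the standard genes the median ratio with luteolin in wild-type rats was -0.13 for the 19 small-subunit genes, 13 of them below 0, and 0.00 for the 28 large-subunit genes, 14 of them below 0. In transgenic rats the medians were -0.01 and -0.02. The wild-type luteolin array was the lowest of the 4 for 11 of the 19 small-subunit genes and for 10 of the 28 large-subunit genes, or 57.9% and 35.7%. It was the lowest for 26.9% of all genes and for 29.8% of non-member genes at or above the members' lower quartile of brightness. These are descriptions of 4 arrays under quantile normalization, and the difference between subunits was not tested. Over all 87 members the wild-type luteolin ratio had a median of 0.22 with median centring and 0.17 on the authors' values. The ratio between genotypes with luteolin had medians of -0.27 and -0.42. The lowest array of a member can therefore change with the scaling.

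Rps26, whose protein lies where mRNA leaves the small subunit, was the only member at 1.5-fold and the only one that stood apart on 1 array. Its log2 intensities were 12.72, 12.80, 12.65 and 12.02. The first 3 arrays lay within 0.15 of each other, and the wild-type luteolin array was 0.63 below the wild-type array, or 1.55-fold lower. Its copies did not share that shape: Rps26l1 had 9.90, 10.08, 9.90 and 9.99, and Rps26-ps12 had 6.73, 6.79, 6.74 and 6.87. The probes in the 2 rows of the file just before it did share it, although they belong to unrelated genes. RT1-A2, a class I histocompatibility gene, had 11.58, 11.97, 11.60 and 10.73, and Sars1, a transfer RNA synthetase, had 8.45, 8.77, 8.42 and 7.52. Their ratios with luteolin in wild-type rats were -0.87 and -0.90. The row after Rps26, Robo4, had a ratio of -0.04, and Rhog, 3 rows after it, had -0.18. What the 3 neighbouring rows share was not tested. With median centring the ratio of Rps26 was -0.30 and on the authors' values it was -0.40, so that it did not reach 1.5-fold on either.

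**Figure D2:**
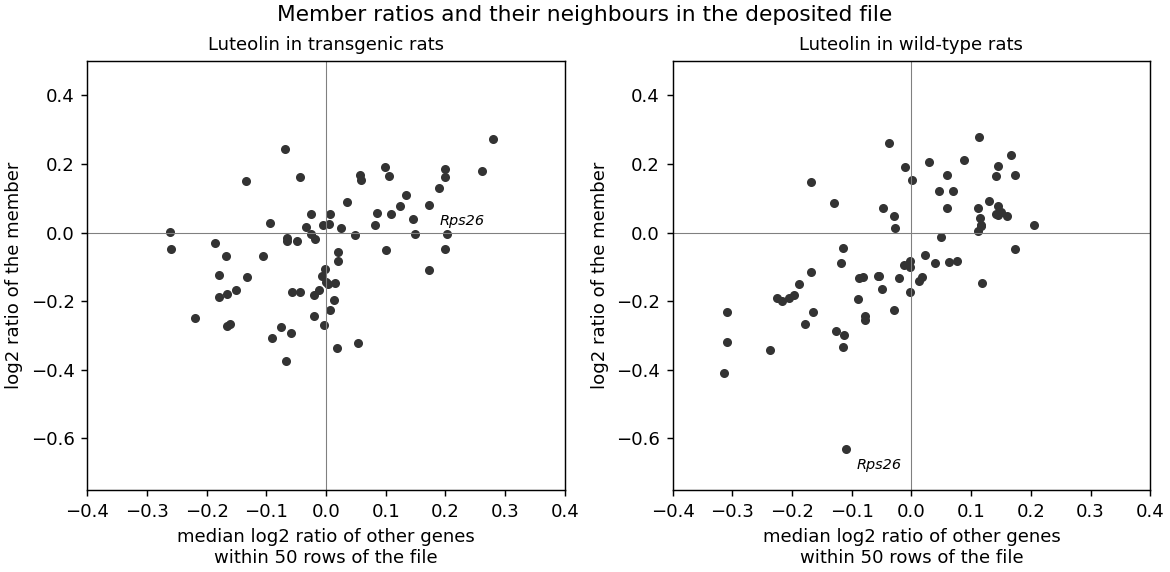
Log2 ratio of each member with luteolin (vertical axis) against the median ratio of the non-member genes within 50 rows of it in the deposited file (horizontal axis), for transgenic rats on the left and wild-type rats on the right; 1 point is 1 of 72 members. The points rise together, more closely in wild-type rats, and Rps26 lies below the others there.

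Position in the file moved with the ratios of other members too. For 72 members with a mean log2 intensity of at least 8 and at least 5 neighbours that bright among the 50 rows on either side, the median ratio of these non-member neighbours was set beside the member's own. Across members Pearson's r was 0.48 for luteolin in transgenic rats, 0.66 for luteolin in wild-type rats, 0.48 for genotype without luteolin and 0.54 for genotype with luteolin. Points share their 2 arrays, and nearby members share neighbours, so r is given as a description. In wild-type rats all 14 members with a luteolin ratio of -0.2 or lower, a limit chosen after the values were seen, had neighbours whose median was below 0, as did 39 of all 72 members, and 11 of the 14 members at 0.1 or higher had neighbours above 0. Among the low ones, Rps27a had a neighbour median of -0.31, Rpl19 of -0.31 and Rps15a of -0.24. With the neighbours' median subtracted, the standard deviation of the members' ratios in wild-type rats fell from 0.178 to 0.135, no member was 1.5-fold lower, and the small-subunit median was -0.11 over 18 genes against -0.01 over 25 large-subunit genes. The sources used here do not say whether rows of the file follow position on the array, and the part of this in the results was not tested beyond that subtraction.

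The second question was whether the transgene went with a different level. Without luteolin the median log2 ratio of transgenic over wild type was 0.05 over the 87 members, against -0.01 over all genes, and 55 members were higher and 31 lower. Among all genes 46.9% were higher and 52.9% lower. None reached 1.5-fold, where 0.715% of all genes were that much higher and 0.403% lower. High ratios were those of Rpl27 at 0.34, Rps21 at 0.30, Rps4x at 0.29 and Rpl21-ps17 at 0.26, and Rpl27 and Rpl21-ps17 were also among the lowest with luteolin in transgenic rats, a comparison that shares the transgenic array. The lowest were Rpl23a-ps6 at -0.48, Rpl14l1 at -0.32, Rpl4 at -0.21 and Rpl10l1 at -0.16.

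With luteolin in both genotypes the median was 0.04, with 55 members higher and 32 lower, where 51.2% of all genes were higher and 48.7% lower. Rps26 was 1.5-fold higher, with a ratio of 0.78, where 0.439% of all genes were. That ratio was 0.43 with median centring and 0.34 on the authors' values, so that the call ended. No member was 1.5-fold lower, where 0.453% of all genes were. The ratio was 0.54 for Rps12l6, 0.43 for Rpl23a-ps6 and 0.34 for Rps15. The lowest was Rpl27a at -0.29, ahead of Rpl21-ps17 and Rpl10l1 at -0.23 each, Rpl5 at -0.20 and Rpl37al3 at -0.20. The sign of this median depended on the scaling: it was -0.27 with median centring and -0.42 on the authors' values, on which all genes had a median of -0.42.

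**Figure D3:**
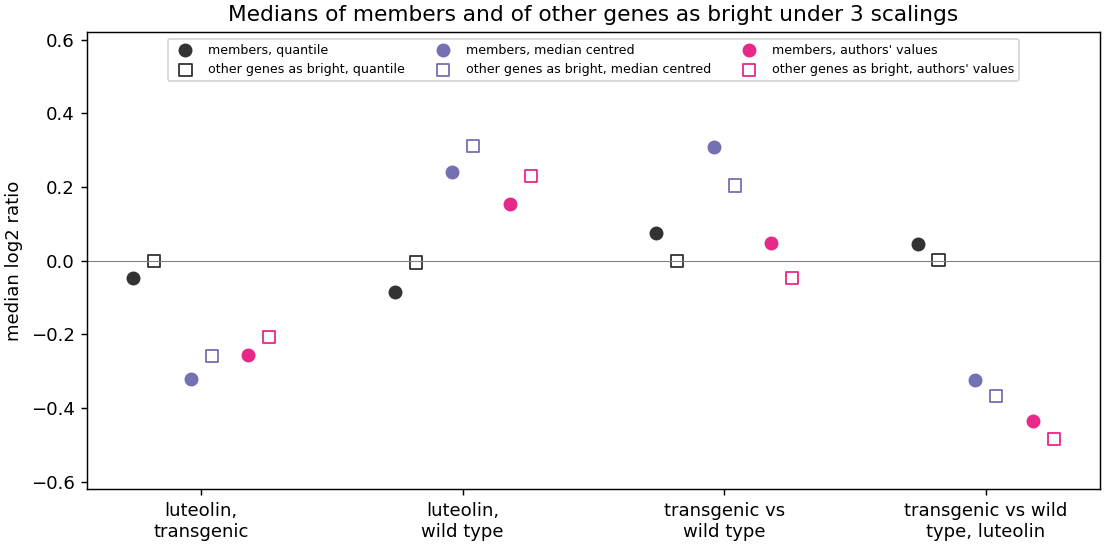
Median log2 ratio in the 4 comparisons for members (filled circles) and for other genes at or above the members' lower quartile of brightness (open squares) under 3 scalings of the arrays, marked by colour; no error is drawn because each group has 1 array. Under each scaling the members lie within 0.11 of the other genes as bright.

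The spread of bright members between arrays was set beside that of non-member genes above the same limit of brightness. The limit was the lower quartile of members, a mean log2 intensity of 9.36. The 65 members at or above it had a median range over the 4 arrays of 0.26, and the 1361 non-member genes had 0.31. The 2 sets were not matched in brightness: their median log2 intensities on the transgenic array were 12.39 and 10.42. The range reached 1.5-fold in 1.54% of these members, which is Rps26, and in 11.8% of these non-members. Taking all 1426 genes this bright, 1.96% were 1.5-fold higher and 1.54% lower with luteolin in transgenic rats, against none of the 65 members in either direction. With luteolin in wild-type rats 1.26% were higher and 1.26% lower, against 0 and 1 of the members. Between genotypes the shares were 1.68% higher and 1.75% lower without luteolin, against no member, and 1.4% higher and 1.61% lower with it, against 1 and 0 members. The standard deviation of the luteolin ratio was 0.15 against 0.29 in transgenic rats and 0.18 against 0.27 in wild-type rats. Over all genes, most of them dim and shrunk by the background offset, the median range was 0.15. Whether the narrower spread is particular to ribosomal protein genes was not tested.

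**Figure D4:**
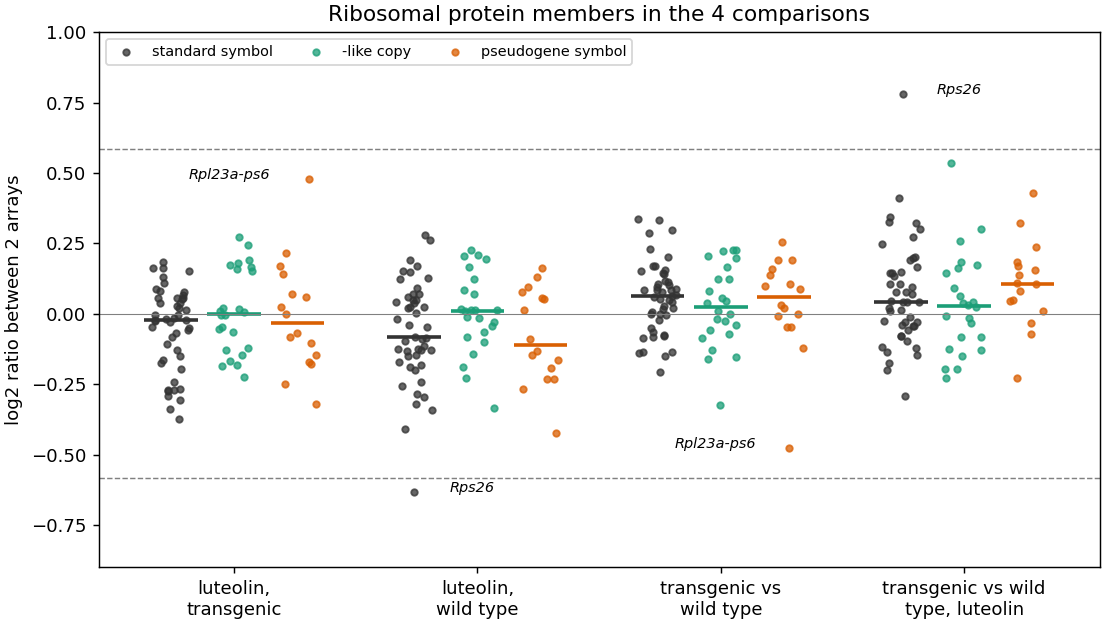
Log2 ratio between 2 arrays for the 87 members in the 4 comparisons, by class of symbol; 1 point is 1 gene, bars are medians, and dashed lines mark 1.5-fold. All points lie inside the dashed lines except Rps26 in wild-type rats with luteolin and in the genotype comparison with luteolin.

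The third question was whether luteolin ratios differed between genotypes. The difference, transgenic minus wild type, had a median of -0.01 over members, which became -0.49 with median centring and -0.45 on the authors' values, and 49 of 87 members had opposite signs in the 2 genotypes (56.3%), against 44.8% of all genes. It reached 1.5-fold in 2 members (2.3%), Rpl23a-ps6 and Rps26, against 1.97% of all genes and 6.31% of the 1426 bright genes. Rpl23a-ps6, named as a pseudogene of Rpl23a, had log2 intensities of 6.90, 7.38, 7.38 and 6.95. It was low in transgenic rats without luteolin and in wild-type rats with it. A probe described as Rpl23a itself, outside the rule, had 13.49, 13.28, 13.28 and 13.33 and was instead highest on the transgenic array. Across members the luteolin ratios of the 2 genotypes had a Pearson's r of -0.13, and across all genes 0.22, both over the same 4 arrays.

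A limma fit of genotype and luteolin as additive terms over all 4 arrays, with 1 residual degree of freedom and Benjamini-Hochberg adjustment over 14128 genes, called no gene at an adjusted p of 0.05, a share of 0.0%, and so no member. Unadjusted p-values lay under 0.05 for 1214 genes (8.59%) and 10 members (11.5%) for luteolin, and for 1018 genes (7.21%) and 4 members (4.6%) for genotype. The 10 members became 7 without background correction, 1 with an offset of 16, 1 with an intensity trend, and 0 with median centring or on the authors' values. The smallest adjusted p of a member was 0.561 for luteolin and 0.686 for genotype. The largest of the 10 luteolin effects was that of Rpl17, at -0.29 with a standard error of 0.05 (limma adjusted p = 0.561), and 7 of the 10 were negative. Rps26 had a luteolin effect of -0.28 with a standard error of 0.22. The residual of this fit holds the difference between the luteolin ratios of the 2 genotypes. For Rps26 that difference was 0.71, so its standard error is not a measure of noise alone. With an intensity trend in limma's eBayes, 327 genes were called for luteolin (2.31%) and 151 for genotype (1.07%), and no member among them. On the authors' values the calls were 79 and 26 genes, again with no member.

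Probes named as the same gene give a rough measure of error within these arrays. The 2 probes of each pair carry different gene identifiers in the files, so they may also measure different loci. For Rpl13, Rpl22, Rpl36 and Rps15a, which have 2 probes each, the log2 ratios of the pair differed by a median of 0.15 over 16 values. The widest gap was 0.54, for Rpl22 between genotypes with luteolin. With luteolin in wild-type rats, Rps15a had a ratio of -0.34 on its brighter probe and 0.09 on the other, and Rpl22 had -0.26 and 0.13. The neighbours of these probes in the file had medians of -0.24 and 0.17 for Rps15a and -0.08 and -0.02 for Rpl22. Copies and standard genes did not move as pairs either. For 25 copies of 19 standard genes, Pearson's r between copy and standard gene was 0.00, -0.05, -0.27 and 0.08 in the comparisons of luteolin in transgenic and wild-type rats and of genotype without and with luteolin.

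The pyrimidine run at the annotated start was set beside the ratios. A gene without a run there may still make mRNA that begins with the tract. In transgenic rats the median luteolin ratio was -0.02 for the 22 standard genes with a run and -0.02 for the 16 without. In wild-type rats it was -0.13 and 0.03, and between genotypes 0.06 and 0.04 without luteolin and 0.09 and 0.00 with it. The ranges overlapped in all 4 comparisons, and the differences were not tested. With luteolin in wild-type rats, genes with a run spanned -0.63 to 0.26 and those without spanned -0.41 to 0.28.

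Paralogs chosen by name behaved as follows. Rpl22 had log2 intensities of 11.24, 11.13, 11.18 and 10.93. Rpl7 had 11.58, 11.57, 11.50 and 11.52, and Rpl7l1, a biogenesis factor related to it, had 9.21 in transgenic rats without luteolin and at most 9.02 on the other arrays. Rpl7 was level over the 4 arrays. Rpl10, which joins the large subunit last, had ratios of -0.02 and 0.05 with luteolin in transgenic and wild-type rats, and the copy Rpl10l1 had intensities of 7.41, 7.36, 7.57 and 7.58. Rpl8 had 13.05, 13.10, 12.95 and 13.02, Rpl39, of the exit tunnel, had 11.79, 11.74, 11.81 and 11.70, and Rps24 had 11.27, 11.12, 11.23 and 11.13. On the brightest probe of each gene, none of these differed by more than 0.26 in any comparison. The dimmer probe of Rpl22 had a ratio of -0.34 between genotypes with luteolin, against 0.20 on the brighter one.

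Ribosomal genes outside the rule were used as a side check. The stalk proteins Rplp0, Rplp1 and Rplp2 and the fusion gene Fau have symbols that lack the digit or the prefix, and none of them reached 1.5-fold in any comparison. With luteolin in transgenic and wild-type rats, Rplp1 had ratios of 0.24 and 0.18, and Fau had 0.15 and 0.02. Rplp0, the scaffold of the stalk, had log2 intensities of 14.15, 14.05, 14.18 and 14.05. A further 12 probes above background carried a description as a ribosomal protein while neither the file's symbol nor the Entrez name met the rule. Some of them have a matching name by accession, such as Rpl23a. Their median ratios were -0.01 and -0.11 with luteolin in transgenic and wild-type rats, and 0.04 and 0.07 between genotypes without and with luteolin. With luteolin in wild-type rats, those described as large-subunit proteins had ratios of -0.28, -0.12, -0.27, -0.09, 0.05 and -0.26. Those described as small-subunit proteins had 0.36, -0.19, 0.15, -0.28, -0.09 and 0.00. Low ratios here were thus not a trait of the small subunit. With quantile normalization the wild-type luteolin array was the lowest of the 4 for 6 of these 12, against 26.9% of all genes.

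**Figure D5:**
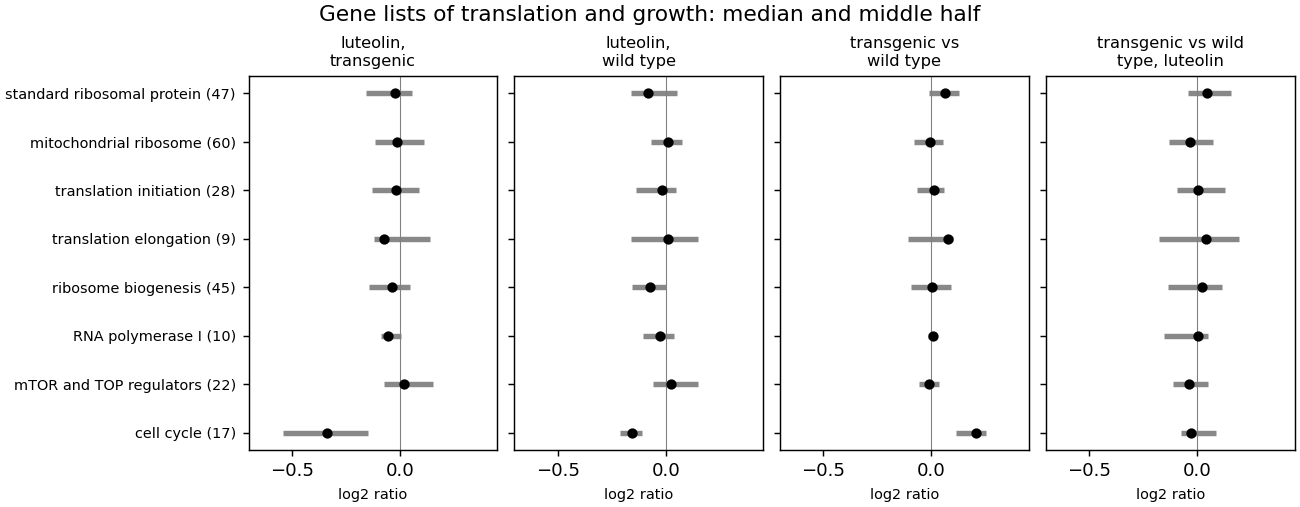
Median (point) and middle 50% (bar) of log2 ratios for standard ribosomal protein genes and 7 gene lists of translation and growth in the 4 comparisons, with the number of genes in brackets. The ribosomal, translation and biogenesis lists sit near 0, while the cell cycle list lies below 0 with luteolin.

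Genes that make, regulate or use ribosomes were taken as lists. The 60 measured mitochondrial ribosomal protein genes serve the separate ribosome of that organelle. Their medians were -0.02 and 0.01 with luteolin in transgenic and wild-type rats. Of them 1, Mrpl35, reached 1.5-fold in any comparison. Its ratio was -0.61 between genotypes with luteolin, where 0.453% of all genes were 1.5-fold lower. The 28 translation initiation genes had medians of -0.02 in both, and Eif3m, a subunit of the factor that loads the small subunit, had a ratio of -0.63 between genotypes with luteolin. The 45 ribosome biogenesis genes had medians of -0.04 and -0.07. With luteolin 29 of them were lower in transgenic and 33 in wild-type rats, where 45.7% and 49.6% of all genes were lower. Nop58, a core protein of the particles that methylate ribosomal RNA, was the 1 at 1.5-fold in transgenic rats, where 1.04% of all genes were 1.5-fold lower. Its log2 intensities were 8.53, 7.94, 8.40 and 8.59. It was low on the transgenic luteolin array alone. The 10 RNA polymerase I genes had medians of -0.06 and -0.03. Taf1c was 1.5-fold lower with luteolin in wild-type rats at -0.89, where 0.396% of all genes were. The 22 genes of mTOR signalling and terminal oligopyrimidine control had medians of 0.02 and 0.03. In that list Deptor, an mTOR inhibitor, had the highest ratios, 0.29 and 0.43, while Myc had -0.36 in transgenic and Ddit4 -0.40 in wild-type rats.

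Among other mRNAs known to start with such a tract, 19 were measured, with medians of -0.04 and -0.06. Of these, Vim alone was 1.5-fold lower with luteolin in transgenic and wild-type rats, where 1.04% and 0.396% of all genes were. Its log2 intensities were 9.18, 8.27, 8.61 and 7.89, and it is also made by mesenchymal cells. Of the cell cycle genes, all 17 were lower with luteolin in both genotypes, with medians of -0.34 and -0.15, where 45.7% and 49.6% of all genes were lower. Without luteolin 16 of the 17 were higher in transgenic than in wild-type rats, with a median of 0.20, a comparison that shares the transgenic array. The difference between these lists was not tested.

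Markers of some other cell types and array depth moved between the arrays as well. The hepatocyte markers were above background on all arrays in 8 of 8 cases. They summed to 118369 to 154938 in raw intensity and to 131592 to 137102 in normalized intensity. In normalized intensity, stellate cell markers summed to 4952 on the transgenic array and to between 2103 and 2411 on the others, with Acta2 above background on none. Macrophage markers summed to 9484 on the transgenic array and to between 6286 and 7339 elsewhere. Of these 8 markers, 6 were higher and 2 lower in transgenic than in wild-type rats without luteolin, with a median ratio of 0.16. Lyz2 had the largest ratio, 0.94, while Clec4f and Cd163 had -0.11 and -0.08. Cholangiocyte markers summed to 2182 on the transgenic array and to between 1373 and 1653 on the others. Erythroid markers summed to 3050 and 2712 on the 2 luteolin arrays against 1591 and 1899. Sums of the remaining lists moved less: 655 to 688 for endothelial, 497 to 519 for neutrophil, 752 to 796 for T and NK cell and 343 to 351 for B-cell markers. The B-cell markers Ms4a1 and Cr2 were above background on no array. The median raw intensity ran from 48.0 to 54.4, and 72.5% to 78.7% of probes were above background. The part of these in the members' ratios was not tested.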

How the data were processed

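Each array was deposited as a raw spot intensity, an intensity less 1 background constant per array, and a globally normalized intensity with its median at 25, per the file headers; the sources used here give neither scanner nor genome build. The raw intensity and that constant were corrected with limma's normexp (offset 50), taken to log2 and quantile normalized (R 4.3.3, limma 3.58.1), which makes the 4 arrays' distributions equal. The offset shrinks ratios of dim genes. A probe was above background on an array where the file's background-subtracted field was filled. Genes were named from a curated accession, the file's symbol or the Entrez identifier, and the brightest probe of a gene was used. Ratios were computed for genes above background on all 4 arrays and counted at 1.5-fold. An additive model was fitted with lmFit and eBayes and checked on simulated data. The model's residual holds any difference in the luteolin effect between genotypes, as well as the spread between single arrays, which may be technical. P-values rest on that residual. Promoters were searched in Python 3.11.15.

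Members and lists were chosen with earlier results of these data known. Named members were, in each comparison, the 5 highest and 5 lowest ratios, those at 1.5-fold or apart on 1 array, the 5 brightest and 5 dimmest, and members fixed by name; other genes named were the extremes of each list, the ribosomal genes outside the rule and the row neighbours of Rps26. Rpl19 and Rpl13, Rpl22, Rpl36 and Rps15a with their 2 probes were named after their values were seen. Some genes that this rule names are not reported here. Alternatives were median centring, the authors' values, no background correction, an offset of 16, probes above background on 1 array, mean of probes, standard symbols alone, bright genes alone, leaving out 2 stretches of the file, and, added after seeing the data, subtraction of the neighbours' median.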

Additional observations from a re-analysis of the deposited data

Results flagged for a closer look

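For 2 members the luteolin ratio went one way in transgenic rats and the other way in wild-type rats by at least 1.5-fold between them, each from 1 array a group, so the difference was not tested. Rpl23a-ps6 had ratios of 0.48 and -0.43, a difference of 0.90 on the log2 scale, on a probe with a mean log2 intensity of 7.16. With median centring the ratios were 0.29 and -0.28, a difference of 0.57, which is under 1.5-fold. Rps26 had ratios of 0.08 and -0.63, a difference of 0.71, and with median centring or on the authors' values both of its ratios were negative, at -0.15 and -0.30 and at -0.09 and -0.40.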

How the results depend on the processing

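With each array centred on its median, the members' median ratio was -0.27 and 0.22 for luteolin in transgenic and wild-type rats, 0.25 and -0.27 for genotype without and with luteolin, and -0.49 for the difference between the luteolin ratios. The 1.5-fold counts were then 3 lower with luteolin in transgenic and 0 lower in wild-type rats, and 0 higher and 1 lower between genotypes with luteolin. Of all genes, 3.21% and 0.163% were lower with luteolin, and 0.163% were higher and 3.93% lower between genotypes with it. On the authors' values the medians were -0.25, 0.17 and -0.42 for luteolin in transgenic rats, luteolin in wild-type rats and genotype with luteolin, and -0.45 for the difference. The counts were 2 lower and 0 lower with luteolin in transgenic and wild-type rats, where 18.5% and 2.17% of all genes were. For genotype without luteolin they were 1 higher and 1 lower, where 7.79% and 3.4% of all genes were. For genotype with luteolin they were 0 higher and 17 of 87 lower, where 0.998% and 29.9% of all genes were. Both scalings leave the arrays' distributions unequal. Under median centring, non-member genes at or above the members' lower quartile of brightness shifted by 0.20 to 0.37 in size. An offset of 16 gave 1 member higher with luteolin in transgenic rats and 1 lower between genotypes without luteolin. Of all genes 0.956% and 0.722% were so with that offset. Subtracting the neighbours' median gave 0 lower with luteolin in wild-type rats.

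No background correction, 1 array above background, the mean of probes, standard symbols alone, bright genes alone and leaving out 2 stretches moved no median by 0.1 or more (log2) and no count by over 1.5 times, although the wild-type luteolin median was -0.08 with standard symbols alone and with bright genes alone; those stretches end 1 row before Rps26. No paired analysis was possible because each group has 1 array, and none could be left out. With signals near background, Rpl11, Rpl13a, Rpl26 and Rps19 cannot be followed.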
